A study of Homo sapiens with 2 samples.

Results

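The genes described here encode the integrins, the laminins, the collagens and 15 further matrix proteins, chosen by symbol in the platform annotation. Integrin subunits were taken by ITGA or ITGB symbols without the ITGB1BP and ITGB3BP binding proteins, laminin chains by LAMA, LAMB or LAMC and a digit, and collagen chains by COL and a digit. The rule found 97 genes among 20046 with a symbol: 26 integrin subunits, 11 laminin chains, 45 collagen chains and the 15 others. They are represented by 166 probes, 60 of which were detected on at least 1 array at a detection p under 0.01. For 48 genes the probe used was detected, on both arrays for 40, on the control array alone for 4 and on the knockdown array alone for 4, and 49 genes were detected on neither.

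Total RNA was taken from SNU216, a long-established line of human gastric cancer cells, and measured on 2 Illumina BeadChip arrays. The control line expressed a non-silencing shRNA (short hairpin RNA), and in the TEAD4 KD line TEAD4 was knocked down. TEAD4 is a transcription factor of the Hippo pathway that binds DNA and recruits the coactivators YAP and TAZ. The design sets these lines against each other to find transcripts that depend on TEAD4. Each group is 1 array, so no difference below has a replicate check and no test between the groups was possible, and whether each line is a clone or a pool is not given in the sources used here.

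Integrins are receptors of 1 alpha and 1 beta subunit that bind matrix outside the cell and actin or keratin filaments inside it. Laminins are trimers of an alpha, a beta and a gamma chain that form, with type IV collagen, the sheet under every epithelium, which hemidesmosomes hold to the basal cell. Fibrillar collagens, fibulins and small leucine-rich proteoglycans belong mostly to the connective tissue beneath and are made in large part by fibroblasts.

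The label was checked against markers of cell types. TEAD4 had a normalized log2 signal of 10.11 in the control and 7.55 in the knockdown, 5.89-fold lower. Of 7 epithelial markers 6 were detected, all but KRT18, with a summed deposited signal of 94104 in the control and 88222 in the knockdown. Of 7 fibroblast markers outside the chosen genes 0 were detected, with summed signals of 7.15 and -9.67, and of 6 endothelial markers 0 were detected. Here and below, a probe that was not detected does not show that its transcript is absent. Between 39.4% and 40.0% of the 47323 probes were detected on an array.

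Promoter sequences are shown for genes the results turn on, since TEAD factors are known to bind the letters GGAATG, which read CATTCC on the opposite strand, and often act beside AP-1. The letters of AP-1 are TGACTCA, which read TGAGTCA on the opposite strand. Both strands were searched, and no member holds both motifs. The windows are the 250 bases before the gene start in RefSeq for GRCh38.p14, and capitals mark a match. COL12A1 (chr6:75206054-75206303, minus strand) was higher in the knockdown and holds the TEAD letters, THBS1 (chr15:39580829-39581078, plus strand) was near equal and holds them too, and FBLN1 (chr22:45502633-45502882, plus strand) was lower and holds neither. For LAMB3, which was higher, 29 bases around its only AP-1 match are shown (chr1:209651424-209651452, minus strand), which lies before the start of 1 of its transcripts.
COL12A1: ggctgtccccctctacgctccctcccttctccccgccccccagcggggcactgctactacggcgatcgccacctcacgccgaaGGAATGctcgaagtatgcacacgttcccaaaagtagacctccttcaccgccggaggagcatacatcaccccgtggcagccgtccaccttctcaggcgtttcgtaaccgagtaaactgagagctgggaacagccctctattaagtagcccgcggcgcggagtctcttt
THBS1: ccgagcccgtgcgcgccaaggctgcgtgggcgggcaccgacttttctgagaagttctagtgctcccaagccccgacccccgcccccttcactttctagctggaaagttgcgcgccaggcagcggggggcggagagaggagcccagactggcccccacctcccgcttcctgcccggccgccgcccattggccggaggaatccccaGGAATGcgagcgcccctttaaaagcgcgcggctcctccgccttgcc
FBLN1: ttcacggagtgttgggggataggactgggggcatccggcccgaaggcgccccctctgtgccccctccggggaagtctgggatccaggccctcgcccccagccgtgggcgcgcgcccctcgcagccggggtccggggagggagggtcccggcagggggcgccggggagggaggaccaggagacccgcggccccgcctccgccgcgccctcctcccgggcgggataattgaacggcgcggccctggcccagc
LAMB3: gtcagccactcTGACTCAttcactttggg

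The TEAD letters begin 167 bases before the start of COL12A1 and 46 bases before that of THBS1. Of the 68 members with a window, 11 (16.2%) hold them in at least 1 window, against 14.3% of 27305 genes. Among the 37 detected members with a window 6 hold them: COL12A1, COL11A2, ITGA10, THBS2, THBS1 and ITGB1. The log2 differences of these 6 genes ran from -0.14 for ITGB1 to 1.08 for COL12A1. The AP-1 letters are in the windows of 2 members (2.94%), LAMB3 and the undetected POSTN, against 5.19% of genes. A match is a description of the letters and not a binding site.

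Taken by size, 17 of the 48 detected members had a normalized difference of 1.5-fold or more with the probe detected on the brighter array, 6 higher and 11 lower in the knockdown. Among all 11720 detected genes 7.24% were higher and 9.2% lower by that much, against 12.5% and 22.9% of the members. Either way it was 35.4% of the members against 16.4% of all genes. For 5 of the 17 (COL11A2, COL6A3, COL5A1, COL28A1 and DCN) the signal on the other array was not above background, and the bound is under 1.5-fold. With genes detected on 1 array at their bound, 12 members remained, 4 higher (8.33%, against 6% of all genes) and 8 lower (16.7%, against 7.3%), or 25% against 13.3% either way. At 2-fold there were 3 members higher (6.25%) and 4 lower (8.33%), against 1.81% and 2.34% of all genes, or 14.6% against 4.15% either way. The median log2 difference of the detected members was -0.07, and that of all detected genes was -0.04. RNA came from whole cultures, so fewer cells carrying a transcript and less of it per cell cannot be told apart.

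The probes of the members gave lower signals, with a median of 7.22 on the log2 scale against 9.42 over all detected genes, and genes of low signal passed 1.5-fold more often. Signals of different probes do not rank the abundance of their transcripts. In the dimmest of 4 equal classes of signal 10 of 23 members (43.5%) were past 1.5-fold against 29.4% of genes, and in the next class 6 of 12 (50%) against 19.6%. The third class held 1 member, which was not past 1.5-fold, and the brightest class 1 of 12 (8.33%) against 4.78%. Among genes detected on both arrays 11 of 40 members (27.5%) were past 1.5-fold, against 13.2% of genes. Of these 4 were higher (10%, against 6% of genes) and 7 lower (17.5%, against 7.21%). Of the members past 1.5-fold ITGB8 was nearest to that limit, at -0.61, and of those short of it LAMA4 was, at 0.52.

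**Figure D1:**
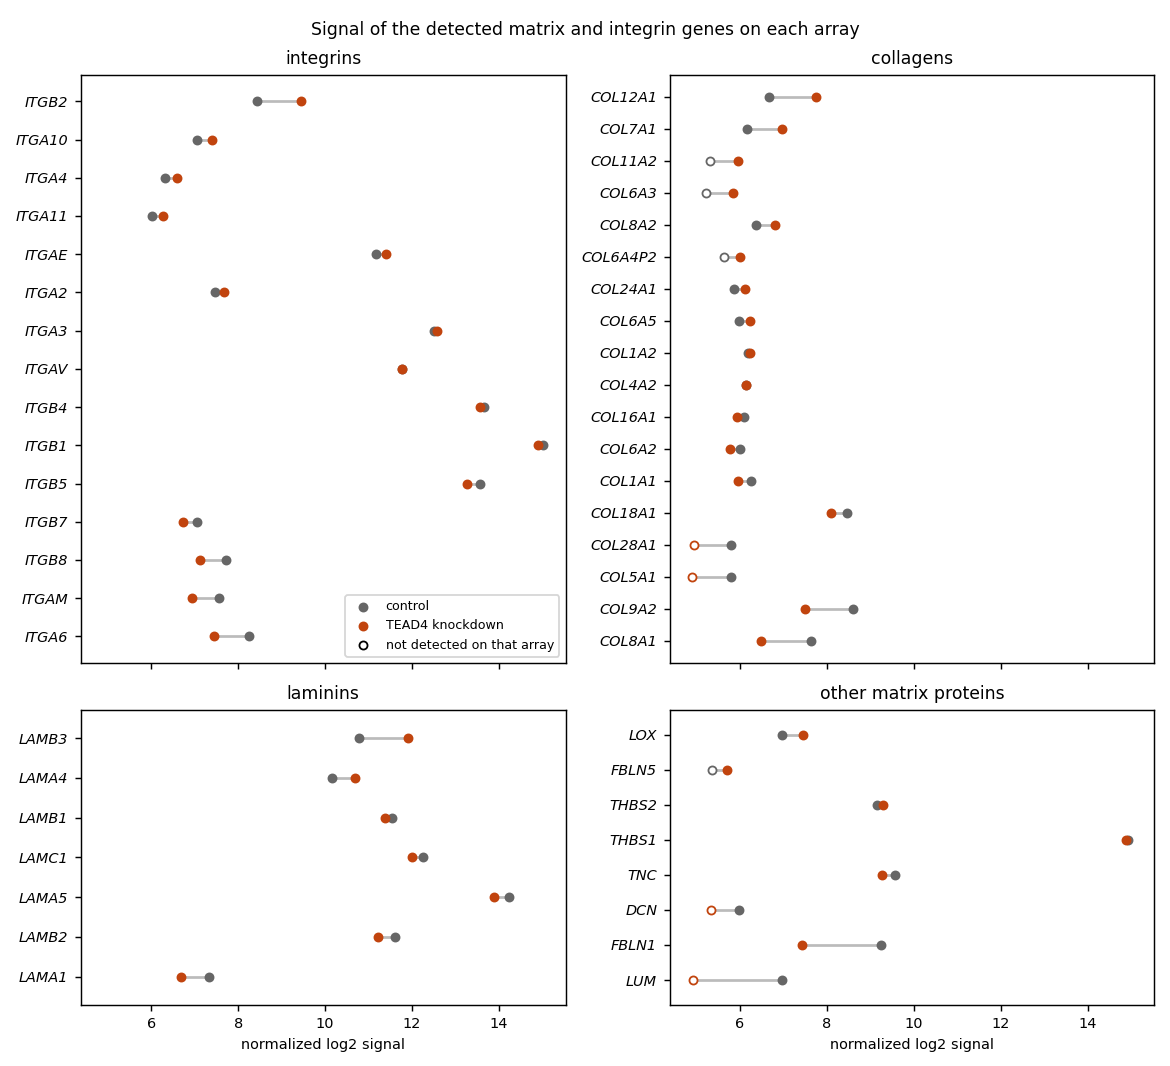
Normalized log2 signal (horizontal axis) of each of the 48 detected genes on the control array (grey) and the TEAD4 knockdown array (orange), 1 array each, by family and ordered by the difference. Open circles were not detected on that array; FBLN1 and LUM show the widest gaps, and ITGAV and COL4A2 points coincide.

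Most integrin transcripts were near equal on the arrays, among them ITGA3 and ITGAV, and the subunits at least 1.5-fold apart were ITGB2, ITGA6, ITGAM and ITGB8. Of 26 integrin genes 15 were detected, all on both arrays, with a median log2 difference of -0.006. Past 1.5-fold, 1 subunit was higher (6.67%, against 7.24% of all genes) and 3 were lower (20%, against 9.2%). ITGA1, ITGA5, ITGA7, ITGA8, ITGA9, ITGA2B, ITGAD, ITGAL, ITGAX, ITGB3 and ITGB6 were detected on neither array.

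ITGB2, the beta chain of the leukocyte integrins, had a log2 signal of 8.44 in the control and 9.46 in the knockdown. Its second probe had 7.69 and 8.91, so that the probes were 1.01 and 1.22 higher in the knockdown. ITGAM, the alpha chain that pairs with it on myeloid cells, went the other way, from 7.56 in the control to 6.93 in the knockdown, a difference of -0.63. The partners ITGAL, ITGAX and ITGAD were not detected. Of 5 leukocyte markers on the array only LYZ was detected, PTPRC was not, and their summed deposited signals were 72.4 (control) and 46.9 (knockdown).

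ITGA6, the laminin-binding alpha chain of hemidesmosomes, had a log2 signal of 8.24 in the control and 7.44 in the knockdown, 1.74-fold lower. The other probes of ITGA6 were detected on neither array. Its hemidesmosome partner ITGB4 gave no single answer. The probe of higher signal had 13.64 and 13.55, a difference of -0.09, and the other detected probe had 10.09 and 11.16, a difference of 1.07. A gap above 1 between the 2 brightest probes occurred in 3.60% of 2497 genes, and ITGB4 was the only 1 of 8 members with such probes to show it. ITGA3, the other laminin-binding alpha chain detected, was level at 12.51 and 12.57.

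ITGB1, the beta chain shared by most of these receptors, also had probes of unlike sign. Its main probe read 15.02 in control cells and 14.88 after knockdown (-0.14), and the other read 12.72 and 13.20 (0.48). The collagen-binding alpha chains ITGA2, ITGA10 and ITGA11 were 0.21, 0.35 and 0.25 higher, all under 1.5-fold. ITGA4, which binds fibronectin and VCAM1, differed by 0.28.

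Among the RGD-binding receptors, which recognise that tripeptide in fibronectin and vitronectin, ITGAV was equal on the arrays (11.77 in each, -0.006). Its partner ITGB8, which is known to help release active TGF-beta, read 7.72 in control cells and 7.12 after knockdown (-0.61). ITGB5, another partner, differed by -0.31, -0.04 and 0.08 over its 3 probes. ITGAE, the partner of ITGB7 that binds E-cadherin, differed by 0.24 and ITGB7 by -0.32. Of 24 known integrin pairs 13 had both subunits detected, and the pair of ITGAM with ITGB2 held the only subunits past 1.5-fold in opposite directions under the probe rule used.

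Of the laminin chains LAMB3 was past 1.5-fold higher in the knockdown and LAMA1 past 1.5-fold lower, and the other 5 detected chains lay within 1.5-fold by their main probes. Of 11 laminin genes 7 were detected, all on both arrays, and their median difference was -0.24. Past 1.5-fold were 14.3% each way, against 7.24% higher and 9.2% lower among all genes. LAMB3, the beta chain found only in the laminin of hemidesmosome anchorage, had a log2 signal of 10.77 in the control and 11.91 in the knockdown, 2.20-fold higher. The other chains of that trimer were not analysed here. The other probes of LAMB3 were detected on neither array. LAMB3 is the gene whose AP-1 match is printed above.

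LAMA4, an alpha chain known from vessel walls, had 10.16 in the control and 10.68 in the knockdown by its main probe, a difference of 0.52. Its second probe had 7.70 and 8.75, a difference of 1.05, so that 1 of the probes was past 2-fold and the other under 1.5-fold. LAMA1, an alpha chain of early embryonic basement membrane, had 7.34 and 6.69, a difference of -0.65. The other probe of LAMA1 was detected on neither array. The remaining chains belong to the common laminins of mature epithelium. LAMA5 differed by -0.35, LAMB2 by -0.40, LAMC1 by -0.24 and LAMB1 by -0.16 and -0.02 on its 2 probes.

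All 3 chains were detected for 5 of 9 known laminin trimers that these genes can form. Among the chains of these 5 trimers LAMA1 alone was past 1.5-fold by its main probe. LAMA2, LAMB4, LAMC3 and the pseudogene LAMB2P1 were not detected.

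**Figure D2:**
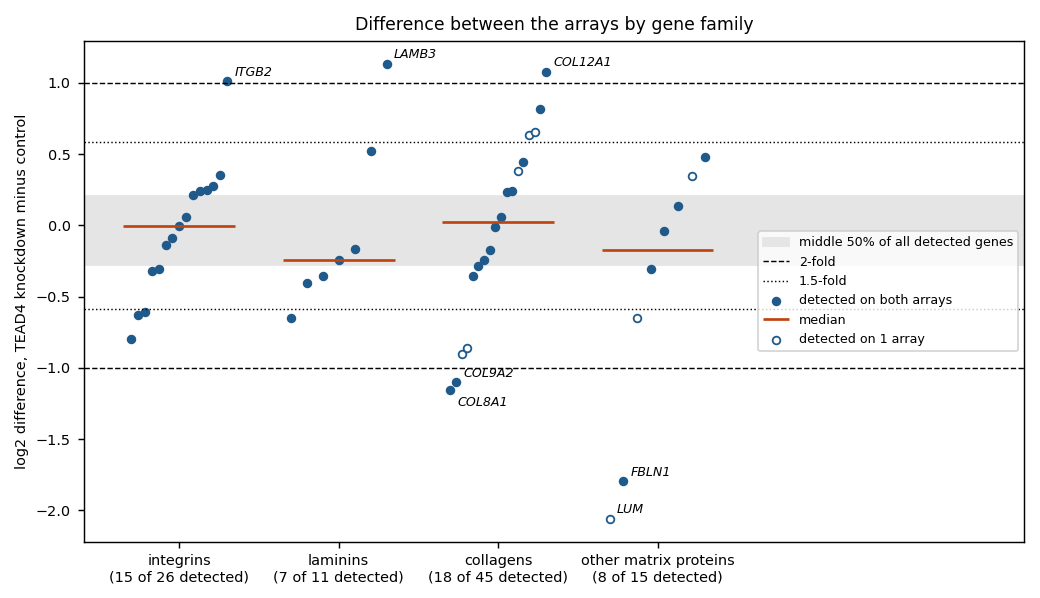
Log2 difference (vertical axis, knockdown minus control, 1 array each) of the detected genes in each family. The red line is the median, the grey band the middle 50% of all 11720 detected genes, and the 7 genes past 2-fold are named: ITGB2, LAMB3 and COL12A1 higher, COL8A1, COL9A2, FBLN1 and LUM lower.

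Collagen chains were mostly not detected or near the detection limit. Of 45 genes 18 were detected, 13 of them on both arrays. By normalized difference 4 were higher and 4 lower past 1.5-fold (22.2% each way, against 7.24% higher and 9.2% lower among all genes). Of these 8 genes 4 have a bound under 1.5-fold. The median difference of the detected collagens was 0.03. COL7A1, which forms the anchoring fibrils beneath the hemidesmosome, had a log2 signal of 6.15 in the control and 6.97 in the knockdown, 1.76-fold higher. COL12A1, a collagen that sits on the surface of fibrils, had 6.66 and 7.74, 2.11-fold higher. The other probe of COL12A1 was detected on neither array.

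Lower in the knockdown were COL8A1 and COL9A2. COL8A1, a network-forming chain known from vessel walls and the cornea, had 7.64 in the control and 6.49 in the knockdown, 2.22-fold lower. Its second probe was detected in the control alone, at least 1.22-fold lower in the knockdown. Its partner chain COL8A2 read 6.36 in control cells and 6.81 after knockdown, a difference of 0.44. COL9A2, a fibril-associated chain known from cartilage, had 8.59 and 7.49, 2.15-fold lower, while COL9A1 and COL9A3 were not detected. In the deposited normalized table the difference of COL12A1 was 0.71, of ITGB2 0.91, of COL8A1 -0.73 and of COL9A2 -0.88, all under 2-fold, and that of COL7A1 was 0.46, under 1.5-fold.

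The remaining 4 collagens passed 1.5-fold only by normalized difference against a signal not above background, and their bounds are all under 1.5-fold. COL11A2 was at least 1.23-fold higher and COL6A3 at least 1.14-fold higher, both detected in the knockdown alone. COL5A1 and COL28A1 were each at least 1.07-fold lower, both detected in the control alone. All 4 lie at the lower edge of what the arrays detected. The pseudogene COL6A4P2 was at least 1.27-fold higher, and whether its probe also reads related transcripts was not tested.

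The type I and type IV collagens were near the detection limit and near equal where detected. COL1A1 had 6.25 and 5.96, a difference of -0.29, and COL1A2 6.18 and 6.24, a difference of 0.06. COL4A2 had 6.14 and 6.13, while COL4A1, which pairs with it, was not detected. COL18A1, the source of endostatin, had 8.45 and 8.09 and differed by -0.36. COL6A2, COL16A1, COL24A1 and COL6A5 differed by -0.24 to 0.24. COL3A1, COL2A1, COL15A1 and the transmembrane collagens COL13A1, COL23A1 and COL25A1 were among the 27 not detected.

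**Figure D3:**
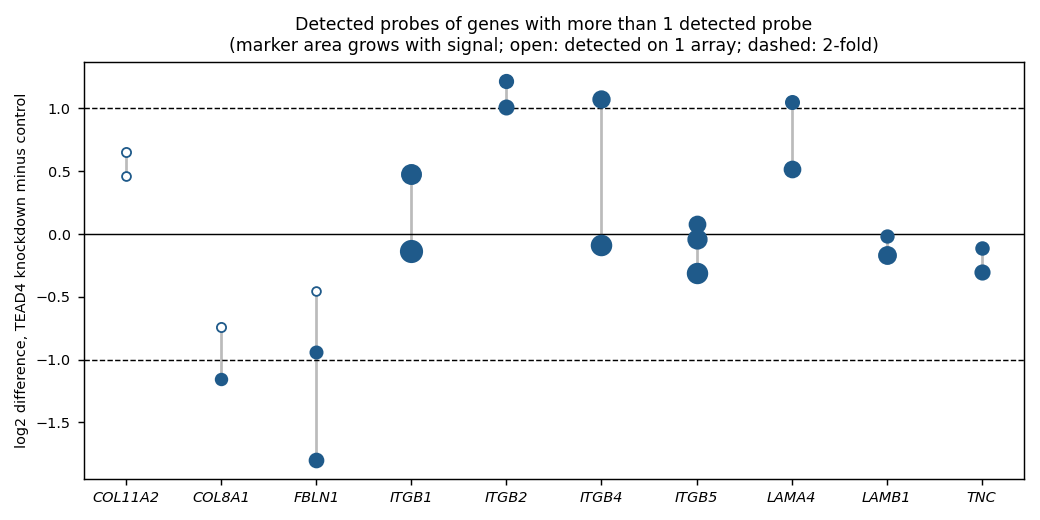
Log2 difference (vertical axis, knockdown minus control) of every detected probe of the 10 genes with more than 1; filled markers were detected on both arrays and open ones on 1, and marker area grows with signal. The probes of ITGB2 and FBLN1 lie on 1 side of 0, while those of ITGB4 and ITGB1 lie on both.

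Among the other matrix proteins FBLN1 and LUM were past 1.5-fold lower in the knockdown. Of the 15 genes 8 were detected, 5 on both arrays, with a median of -0.17. By normalized difference 3 passed 1.5-fold lower (37.5%, against 9.2% of all genes) and 0 higher (against 7.24%). DCN, one of the 3, has a bound under 1.5-fold. LOX, THBS2 and FBLN5 differed the other way, with values given below. FBLN1, a calcium-binding glycoprotein of basement membranes and elastic fibres, had a log2 signal of 9.23 in the control and 7.43 in the knockdown, 3.48-fold lower. A second probe had 8.06 and 7.12, 1.92-fold lower. The next was detected in the control alone, at 5.67, too near the limit for a bound, and the 2 dimmest of its 5 probes were detected on neither array. These differences are those of the gene whose printed promoter holds neither set of letters.

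LUM, which encodes lumican, a small proteoglycan that spaces collagen fibrils, had 6.97 in the control and was not detected in the knockdown (4.91). It was at least 2.41-fold lower. The second probe of LUM was detected on neither array. DCN, which encodes the related proteoglycan decorin, had 5.98 in the control, was not detected in the knockdown (5.33), and was at least 1.21-fold lower. The other 3 of its 4 probes were detected on neither array. Of 5 smooth muscle markers 3 were detected, and their summed deposited signals were 615 (control) and 346 (knockdown), with DES and MYH11 not detected. ACTG2 was 5.86-fold lower among them, with a knockdown signal of 5.71 near the detection limit and a difference of -1.60 in the deposited normalized table. CNN1 was at least 1.27-fold lower, while SMTN had 8.07 and 8.36, a difference of 0.30, and their part in the results of FBLN1, LUM and DCN was not tested. As given above, 0 of 7 other fibroblast markers were detected on either array.

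Matricellular proteins, which signal to cells rather than build the matrix, were near equal. THBS1, a thrombospondin often used as a readout of YAP activity, had 14.91 in the control and 14.87 in the knockdown, a difference of -0.04. THBS2 had 9.14 and 9.28 and differed by 0.14. TNC, which encodes tenascin-C, had 9.57 and 9.26 by its main probe (-0.31) and differed by -0.11 on the other. LOX, the enzyme that cross-links collagen and elastin, had 6.97 and 7.44, 1.39-fold higher. FBLN5 was detected in the knockdown alone, at least 1.03-fold higher, and FN1, FBN1, FBLN2, SPARC, POSTN, LOXL1 and LOXL2 were not detected.

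Genes around these families were followed in lists that do not overlap with them. Among 17 detected genes for collagen synthesis and processing 3 were higher past 1.5-fold (17.6%, against 7.24% of all genes). Lower by that much was 1 (5.88%, against 9.2%), and the median was 0.07. P3H2, a prolyl hydroxylase that acts on basement membrane collagen, had 9.43 in the control and 10.92 in the knockdown, 2.82-fold higher. SERPINH1, the collagen chaperone, was 1.79-fold higher and the prolyl hydroxylase subunit P4HA2 1.63-fold higher, with 1.54-fold by its second probe. PCOLCE, which aids the cutting of procollagen, was 1.66-fold lower, and -0.52 in the deposited normalized table, under 1.5-fold.

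Of 10 detected hemidesmosome and non-integrin receptor genes 2 were at least 1.5-fold higher (20%, against 7.24% of all genes) and 1 lower (10%, against 9.2%). PLEC, which encodes the plectin that ties ITGB4 to keratin, had 8.96 and 10.25, 2.44-fold higher, by the only 1 of its 8 probes that was detected. SDC4, the syndecan of focal adhesions, had 10.41 and 11.69, 2.42-fold higher. BCAM, a receptor for the laminin alpha chain LAMA5, had 8.68 and 7.40, 2.42-fold lower. Among 7 detected basement membrane linkers and proteoglycans TINAGL1 alone was past 1.5-fold (14.3%, against 7.24% of all genes higher). It had 7.47 and 8.67, 2.29-fold higher.

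Of 32 detected genes of integrin activation and the adhesion plaque 2 were at least 1.5-fold higher (6.25%, against 7.24% of all genes) and 4 lower (12.5%, against 9.2%), with a median of -0.17. The kindlin gene FERMT1, which activates integrins, was 1.84-fold higher, and so was the adaptor BCAR1 by 1.84-fold. NEDD9, the relative of BCAR1, was lower by all 4 of its probes, from -0.65 to -1.61. KANK1 (-0.71), TES (-0.68) and FHL2 (-0.60) were the others, and second probes of TES and FHL2, at -0.36 and -0.37, were under 1.5-fold. Among 10 detected fibulin relatives, fibrillins and elastic fibre genes LTBP4, which holds latent TGF-beta, was 2.53-fold lower and EFEMP2, a fibulin, 2.11-fold lower. Past 1.5-fold lower were 20% of that list, against 9.2% of all genes. Among 9 detected matricellular genes and small proteoglycans THBS4 alone was past 1.5-fold (11.1%, against 7.24% of all genes higher), at 1.70-fold higher. In the deposited normalized table THBS4 (0.42) and KANK1 (-0.58) were under 1.5-fold, and LTBP4 (-0.81), EFEMP2 (-0.84) and TINAGL1 (0.95) under 2-fold.

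**Figure D4:**
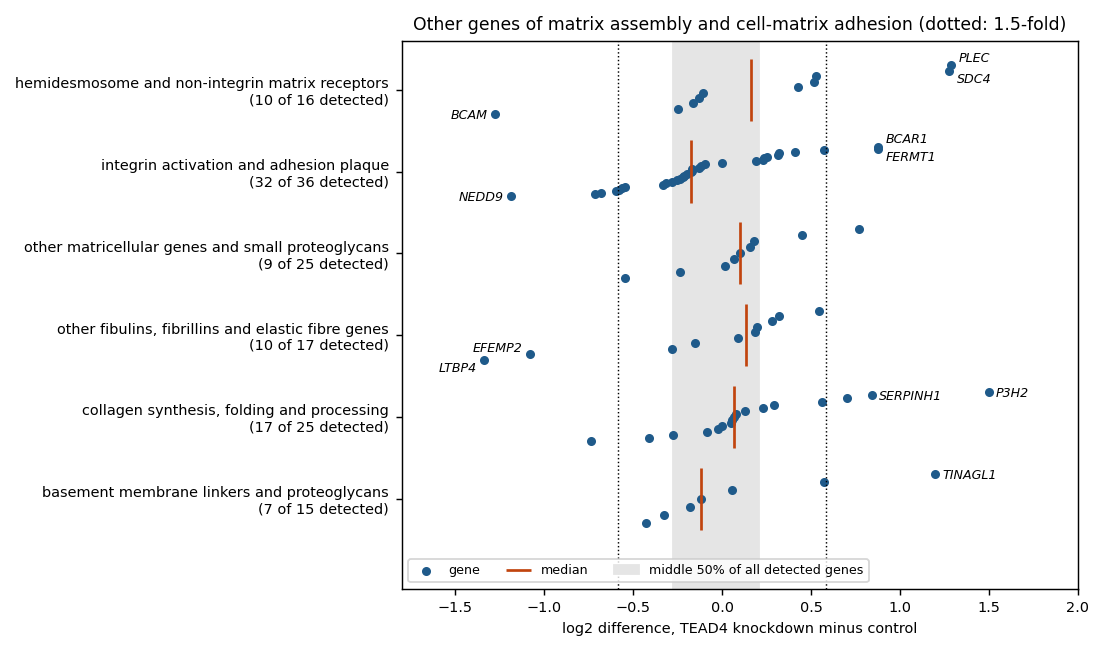
Log2 difference (horizontal axis, knockdown minus control, 1 array each) of the detected genes in 6 lists of matrix assembly and adhesion genes outside the chosen families, with medians in red and the middle 50% of all detected genes in grey. P3H2, PLEC, SDC4 and TINAGL1 lie furthest to the higher side, LTBP4, BCAM, NEDD9 and EFEMP2 to the lower.

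The 17 genes kept their sign under median scaling. The other settings that change their values are the offset of 50, the deposited normalized table and no normal-exponential step. These keep the order of probes on each array and give both arrays nearly the same distribution, so they could not change a sign. The detection settings repeat the same values, and the probe settings change only genes with more than 1 detected probe. By the values of the deposited normalized table, 8 of the 17 stayed past 1.5-fold and LAMB3, FBLN1 and LUM past 2-fold. The 9 that did not were COL7A1, COL11A2, COL6A3, COL5A1, COL28A1, DCN, ITGAM, ITGB8 and LAMA1.

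**Figure D5:**
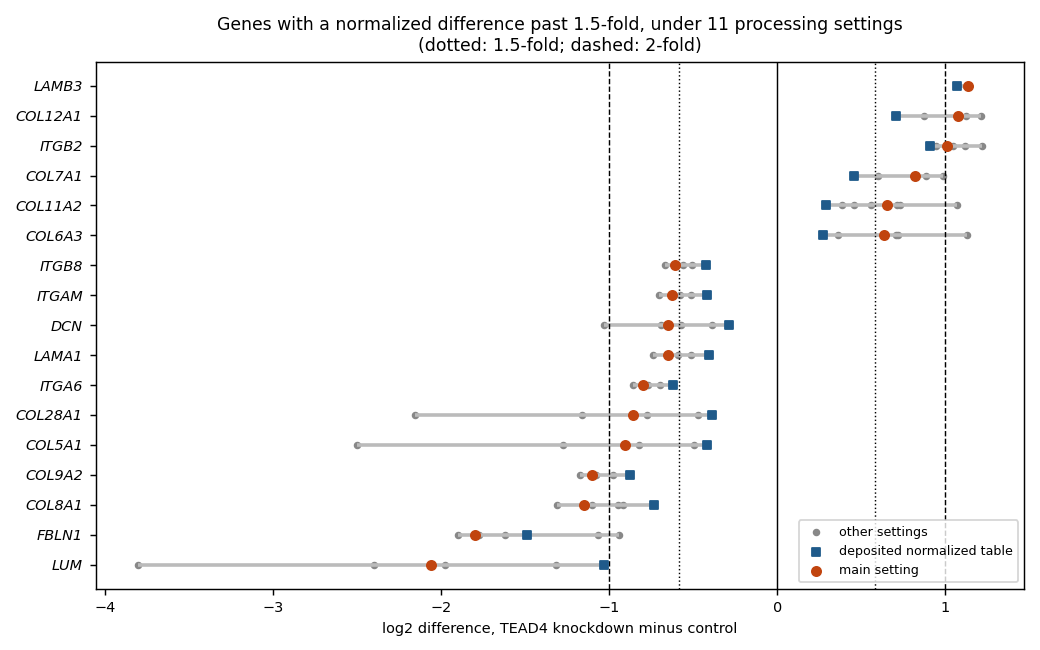
Log2 difference (horizontal axis, knockdown minus control) of the 17 genes with a normalized difference past 1.5-fold under the main setting (orange), the deposited normalized table (blue squares) and the other settings (grey). No range crosses 0, though only median scaling and the probe settings could have changed a sign. LUM has the widest range, from -3.81 to -1.03, and LAMB3 the narrowest, from 1.07 to 1.14.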

How the data were processed

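The authors deposited a table of non-normalized probe intensity values beside detection p-values, per the file headers, and a normalized intensity table on a linear scale. The first had a background level subtracted (12861 and 12895 of 47323 values are below 0); the software is not given in the sources used here. Log2 signals were computed with neqc of limma 3.58.1 in R 4.3.3 (normal-exponential background correction, offset 16, quantile normalization); the offset draws folds of dim probes towards 1. For genes with several probes, the one of highest mean signal was used. For a probe detected on 1 array a bound is given: its signal there, divided by its signal on the other array or by the lowest detected signal of that other array, whichever is larger. Symbols came from the platform annotation (1 symbol for 30113 probes, several for 8, 17202 not listed), and 30074 matched RefSeq by Entrez identifier. Every detected member could be named, and of each further list the genes past 1.5-fold, at most 4 a direction. The members and lists were chosen with earlier results of these data known. Probes of one gene had an SD of 0.32 per probe in log2 difference over 2497 genes; it holds no spread between cultures. Only the step that calls 2-fold differences was tested on simulated data, for genes of higher signal set as detected on both arrays. The planted changes were larger than 2-fold, so the test does not cover dim probes, bounds or smaller differences. The number of arrays limits the precision.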

Additional observations from a re-analysis of the deposited data

How the results depend on the processing

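Normalized differences of 1.5-fold or more were found for 17 members (6 higher, 11 lower), 5 of them with a bound under 1.5-fold, against 9 (4 and 5) with an offset of 50, 8 (3 and 5) in the deposited normalized table and 11 (4 and 7) among members detected on both arrays. At least 2-fold apart were 7 (3 higher, 4 lower), against 3 (1 and 2) with the offset of 50 and likewise 3 (1 and 2) in the deposited table. Without the normal-exponential step or an offset it was 12 (5 and 7), and with second brightest probes 7 (5 and 2). The other settings (floor of 0 plus 16 without the normal-exponential step, mean of probes, detection p of 0.05, no detection filter, median scaling) kept every one of these counts within 1.5 times. The median of -0.07 became -0.01 (-0.0074) with the mean of probes and with second probes (-0.0074), and 0.02 (0.0211) with no detection filter, where that of all genes was -0.02. The cause was not tested. No paired analysis was possible because there was a single array of control cells and a single array of knockdown cells, so no replicate could be left out. Genes within the lowest class of signal are limited by signal over background.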
